A study of Mus musculus with 8 samples.

Results

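The genes of tight junctions were examined in cultured mouse keratinocytes (KCs), the epithelial cells of the epidermis. The group held 7 claudin genes (Cldn1, Cldn3, Cldn4, Cldn6, Cldn7, Cldn8 and Cldn12), the occludin gene Ocln and the gene Tjp1, which encodes ZO-1. They were chosen by name and family, and all 9 were found among the 41457 genes of the deposited tables. KCs came from tail skin of adult wildtype C57BL/6 mice and were kept, untreated, in serum-free medium with a low Ca++ concentration. Poly(A) RNA was sequenced from 4 samples after 1 week and 4 samples after 3 weeks of culture, which the submitters describe as 4 independent experiments. The study describes the same KC batches as cultured for both times, but the labels do not mark pairs. The main test was therefore unpaired, and the calls lost when replicate numbers were used as pairs are listed at the end. The question was how the RNA levels of the sealing proteins differed between short and prolonged culture.

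Tight junctions are belts of membrane strands that seal the space between neighbouring epithelial cells. Claudins, small proteins that cross the membrane several times, form the strands by pairing across the gap, and the claudin types present set how tight the seal is and which ions pass. Occludin lies in the same strands, and ZO-1 ties their cytoplasmic ends to actin. In epidermis the functional belt sits in the granular layer, and Cldn1 is known to be needed for the skin barrier.

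Levels are given as deposited RPKM, the reads on the exons of a gene scaled to exon length and sequencing depth, with means ± SD. Log2 fold changes, 3 weeks over 1 week, and adjusted p-values are from edgeR's quasi-likelihood test on the exon reads of 12590 genes that passed a filter on low counts, adjusted by Benjamini-Hochberg, and a gene was called at an adjusted p under 0.05. The test scales the samples to each other by TMM, which the RPKM values do not. Its fold changes therefore differ from the ratios of the mean RPKM. A sample held between 13896807 and 20026084 exon reads at 1 week and between 14096649 and 18127283 at 3 weeks. Replicate 4 of the 3-week samples stood furthest apart. Its root mean square log2 distance over all tested genes from the other 3-week samples was 0.797 to 1.08, against 0.432 to 0.782 among those and 0.392 to 0.637 among the 1-week samples. It was the highest 3-week sample in 38.3% of the tested genes and in 5 of the 9 tight junction genes, and the lowest in 34.2% and in 3. Replicate 3 was the lowest 3-week sample in 41.0% of the tested genes, and its distance from replicate 1 was 0.782. Replicate 4 was thus not the only 3-week sample that differed. The values of the tight junction genes are given with and without replicate 4. In bulk RNA, fewer cells of a type and less RNA per cell cannot be told apart.

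Cldn4 and Cldn6 rose between 1 and 3 weeks, Cldn1, Cldn3, Cldn7, Cldn12, Ocln and Tjp1 did not pass the test, and Cldn8 had too few reads to enter it. Thus 2 of 8 tested genes were called higher and 0 lower, whereas 15.7% of all tested genes were called higher and 17.0% lower (32.8% in either direction). The median log2 fold change of the 8 genes was 0.30, and that of all tested genes 0.03. Without replicate 4 of the 3-week samples, Cldn4 and Cldn6 again rose, while Cldn1 and Ocln passed the test as lower. In that comparison 17.8% of all tested genes were called higher and 18.7% lower (36.5% in either direction), and the median of the 8 genes was 0.06. When 3 weeks replicate 3 was left out instead, Cldn1 and Ocln did not pass (edgeR adjusted p = 0.940 and 0.353). Between the groups of 4, the RPKM values of Cldn4 and Cldn6 did not overlap, as was the case, in the same direction, for 10.8% of all tested genes.

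**Figure D1:**
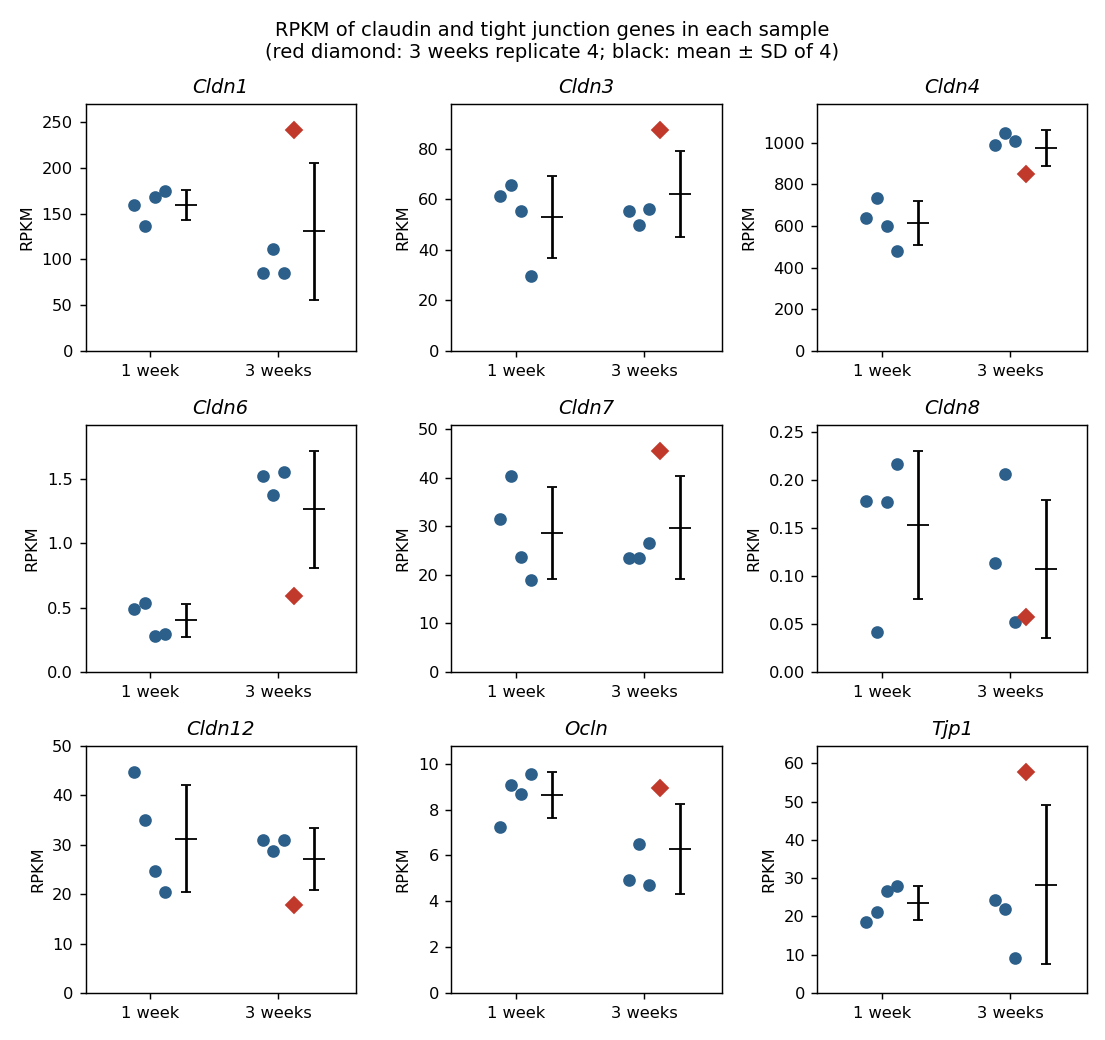
RPKM of the 9 tight junction genes in each sample (points; 4 per time point), with the mean and SD as bars, each panel on its own linear axis. All 4 points of Cldn4 and of Cldn6 at 3 weeks lie above those at 1 week, and the point of 3 weeks replicate 4 is the highest 3-week value of Cldn1 (241), Cldn3 (87.3), Cldn7 (45.5), Ocln (8.95) and Tjp1 (57.7).

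Both genes that rose have RefSeq promoter windows on GRCm38.p6, which are shown because the genes moved together. They are printed on the strand of the gene up to 30 bases past its start in the deposited tables, at chr5:134946905-134947184 (minus strand, 250 bases before the start) for Cldn4 and chr17:23679115-23679278 (plus strand, 134 bases before the start) for Cldn6. For Cldn4 the RefSeq start is the same base, whereas for Cldn6 it lies 116 bases further into the gene. Capitals mark the letters CACCTG or the same site read from the other strand, CAGGTG, an E-box of the kind that the repressors of the Snail and Zeb families bind.
Cldn4: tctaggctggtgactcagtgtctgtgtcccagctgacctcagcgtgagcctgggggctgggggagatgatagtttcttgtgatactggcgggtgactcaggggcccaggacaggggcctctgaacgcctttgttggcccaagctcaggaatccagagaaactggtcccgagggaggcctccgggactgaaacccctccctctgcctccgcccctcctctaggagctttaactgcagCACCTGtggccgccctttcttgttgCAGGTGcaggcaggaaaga
Cldn6: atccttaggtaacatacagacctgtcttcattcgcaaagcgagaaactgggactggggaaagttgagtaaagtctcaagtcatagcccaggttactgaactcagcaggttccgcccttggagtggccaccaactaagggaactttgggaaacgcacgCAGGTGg

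In the Cldn4 window an E-box began at base -14 and another at base 12, counted from the start. Cldn6 had an E-box at base -93 from its RefSeq start, which is base 24 of the gene in the tables and so lies within the transcribed part there, and a further one at base 41 from the RefSeq start, beyond the printed stretch. Windows of 300 bases were matched for 8 of the 9 genes, and 6 of their 12 windows, from 5 genes, held CACCTG or CAGGTG, which occurred in 20.2% of all 32851 RefSeq promoter windows of this length. The windows of Ocln overlap and share a CAGGTG that was counted in each, and those of Cldn12 also overlap. The 12 windows are thus not independent, and their share was not tested against that of all windows. Cldn3, Cldn7 and Ocln were the other genes with such a site, none of which passed the test with all samples. The letters ACCGGT, the core of the site of grainyhead-like factors, were in none of the 12 windows and in 2.33% of all windows. TATAAA or TTTATA was likewise in none of the 12 and in 13.6% of all. These are matches of letters only, and binding was not measured.

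Cldn4 (ENSMUSG00000047501, chr5:134945119-134946934, minus strand, GRCm38) encodes a claudin of many epithelia and consists of a single exon. Its level at 1 week was 641, 733, 601 and 483 RPKM in replicates 1 to 4. At 3 weeks it was 991, 1049, 1008 and 851 RPKM. The lowest 3-week sample, replicate 4, thus lay above the highest 1-week sample. The mean went from 614 ± 104 to 975 ± 86.1 RPKM (n = 4 each), a ratio of 1.59. The log2 fold change fitted to the reads was 0.84 (SE 0.18, edgeR adjusted p = 0.00687), or 1.78-fold. The log2 fold change without 3 weeks replicate 4 was 0.91 (edgeR adjusted p = 0.00346). By mean RPKM, Cldn4 ranked 68 among the 41457 genes at 1 week and 39 at 3 weeks.

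Cldn6 (ENSMUSG00000023906, chr17:23679249-23682446, plus strand), a claudin best known from embryonic epithelia, was present at a far lower level. It was covered by 16, 19, 7 and 9 exon reads in the 1-week samples and by 49, 39, 44 and 15 in the 3-week samples. Per length and depth these were 0.488, 0.536, 0.283 and 0.296 RPKM at 1 week. The 3-week values were 1.53, 1.38, 1.56 and 0.593 RPKM. Replicate 4 at 3 weeks was well below the other 3 samples of its group and only just above the highest 1-week sample, so the groups came close without overlapping. The mean was 0.401 ± 0.130 RPKM at 1 week and 1.26 ± 0.454 RPKM at 3 weeks, and the fitted log2 fold change was 1.81 (SE 0.40, edgeR adjusted p = 0.00848), or 3.51-fold. When 3 weeks replicate 4 was left out, it was 2.05 (edgeR adjusted p = 0.00171). At 7 to 49 reads a library, its level is less precise than that of Cldn4.

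Cldn1 (ENSMUSG00000022512, chr16:26356642-26371841, minus strand), the main claudin of the epidermal barrier, was the next most abundant after Cldn4. In the 1-week samples it stood at 159, 136, 168 and 175 RPKM. In the 3-week samples it stood at 84.7, 112, 85.2 and 241 RPKM. Replicates 1 to 3 at 3 weeks were all below the 1-week range, and replicate 4 was above it, so the groups overlapped. With all samples the log2 fold change was -0.14 (SE 0.31, edgeR adjusted p = 0.757). Without 3 weeks replicate 4, Cldn1 fell by a fitted 0.58 on the log2 scale (SE 0.15, edgeR adjusted p = 0.0159). Its mean was then 159.5 ± 16.8 RPKM at 1 week and 93.9 ± 15.5 RPKM at 3 weeks (n = 4 and 3). The call for Cldn1 therefore rested on whether this sample was included.

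Cldn3 (ENSMUSG00000070473, chr5:134986214-134987472, plus strand), a sealing claudin, also has a single exon and lies 39279 bases from Cldn4. Its values were 61.4, 65.5, 55.2 and 29.6 RPKM at 1 week, where replicate 4 was the lowest. They were 55.3, 49.9, 56.1 and 87.3 RPKM at 3 weeks, where replicate 4 was the highest. Replicates 1 to 3 at 3 weeks lay within the 1-week range and replicate 4 above it. The log2 fold change was 0.39 (SE 0.26, edgeR adjusted p = 0.281) and, without 3 weeks replicate 4, 0.21 (edgeR adjusted p = 0.543). The gene Wbscr25 overlaps Cldn3 on the opposite strand over 40 bases but had at most 1 read in any sample.

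Cldn7 (ENSMUSG00000018569, chr11:69964779-69967885, plus strand), a claudin also found along the lateral membrane of epithelial cells, had 31.5, 40.3, 23.6 and 18.9 RPKM at 1 week. At 3 weeks it had 23.4, 23.5, 26.5 and 45.5 RPKM. Replicates 1 to 3 at 3 weeks lay within the 1-week range and replicate 4 above it. The log2 fold change of 0.22 (SE 0.28, edgeR adjusted p = 0.592) became -0.03 without replicate 4 (edgeR adjusted p = 0.940).

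Cldn12 (ENSMUSG00000046798, chr5:5489537-5514958, minus strand), an unusual claudin without the PDZ-binding end through which others hold ZO-1, had 44.7, 35.0, 24.7 and 20.5 RPKM at 1 week. Its 3-week values were 31.0, 28.8, 30.9 and 17.7 RPKM. Here replicate 4 was the lowest sample at both times. The log2 fold change was -0.03 (SE 0.29, edgeR adjusted p = 0.946), and 0.14 without 3 weeks replicate 4 (edgeR adjusted p = 0.705).

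Cldn8 (ENSMUSG00000050520, chr16:88560828-88563183, minus strand), known from kidney tubules and colon, was near the detection limit. The 1-week samples held 8, 2, 6 and 9 reads and the 3-week samples 5, 8, 2 and 2, in all 25 against 17. Both groups covered nearly the same range. Mean levels of 0.153 ± 0.0770 and 0.107 ± 0.0718 RPKM were compared by an exact permutation test (two-sided, p = 0.457), which with 70 arrangements cannot give a p below 0.0286. A difference was not detectable at this depth.

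Ocln (ENSMUSG00000021638, chr13:100496507-100552718, minus strand), which encodes occludin, had 7.24, 9.08, 8.70 and 9.55 RPKM at 1 week. It had 4.92, 6.50, 4.72 and 8.95 RPKM at 3 weeks. As for Cldn1, replicates 1 to 3 at 3 weeks were below every 1-week sample, whereas replicate 4 lay among them. With all samples the log2 fold change was -0.31 (SE 0.19, edgeR adjusted p = 0.248). Without 3 weeks replicate 4, Ocln fell by 0.50 on the log2 scale (SE 0.14, edgeR adjusted p = 0.0263).

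Tjp1 (ENSMUSG00000030516, chr7:65296165-65527781, minus strand), the gene of the scaffold protein ZO-1, had 18.5, 21.0, 26.7 and 27.8 RPKM at 1 week. At 3 weeks it had 24.2, 22.0, 9.24 and 57.7 RPKM. The extremes of all 8 samples, replicate 3 as the lowest and replicate 4 as the highest, were both 3-week samples. The mean of 28.3 ± 20.7 RPKM at 3 weeks therefore had a wider spread than that of 23.5 ± 4.45 RPKM at 1 week. The log2 fold change was 0.39 (SE 0.43, edgeR adjusted p = 0.516), and -0.19 without replicate 4 (edgeR adjusted p = 0.632).

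**Figure D2:**
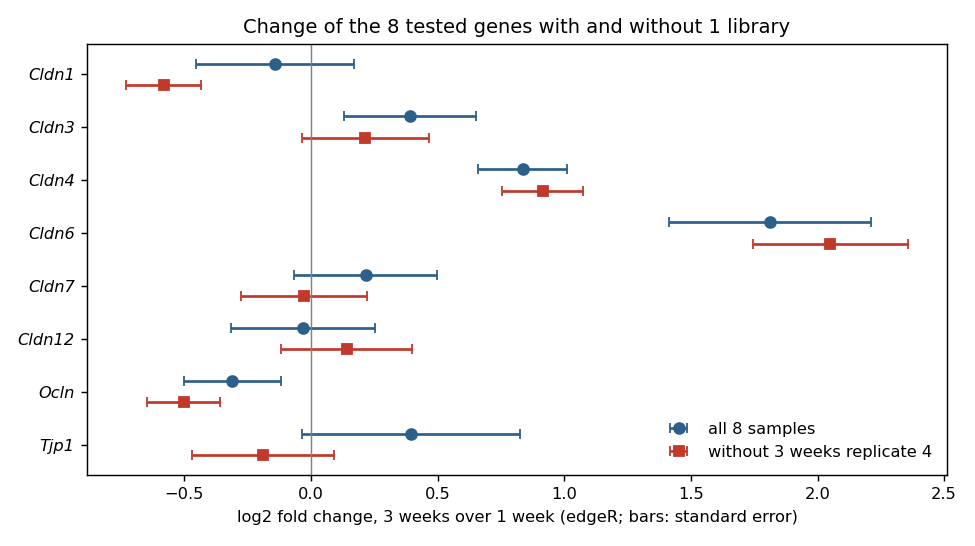
Log2 fold change (3 weeks over 1 week) of the 8 tested tight junction genes with its SE, from all 8 samples and without 3 weeks replicate 4. Cldn4 (0.84 and 0.91) and Cldn6 (1.81 and 2.05) lie above 0 in both fits, whereas Cldn1 (-0.14 and -0.58) and Ocln (-0.31 and -0.50) move further below 0 without this sample.

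Ordered by mean RPKM at 1 week, the genes ran Cldn4, Cldn1, Cldn3, Cldn12, Cldn7, Tjp1, Ocln, Cldn6 and Cldn8. In that order, the values of the neighbours Cldn3 and Cldn12, Cldn12 and Cldn7, and Cldn7 and Tjp1 overlapped. At 3 weeks the order was Cldn4, Cldn1, Cldn3, Cldn7, Tjp1, Cldn12, Ocln, Cldn6 and Cldn8, with overlap between Cldn1 and Cldn3, Cldn7 and Tjp1, and Tjp1 and Cldn12. The different places of Cldn12 thus lie among genes that were not separated by their spread.

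Cldn4 made up most of the claudin RNA at both times. Its share of the summed RPKM of all 33 claudin genes was 68.0%, 72.3%, 68.5% and 66.0% in the 1-week samples and 82.9%, 82.3%, 82.6% and 67.5% in the 3-week samples. Replicates 1 to 3 at 3 weeks were above all 1-week samples, while replicate 4 was within their range. Cldn1 ran the other way, with 16.9%, 13.4%, 19.1% and 23.9% at 1 week and 7.09%, 8.78%, 6.99% and 19.1% at 3 weeks. The ratio of Cldn4 to Cldn1 was 2.76 to 5.38 at 1 week and 11.7, 9.38, 11.8 and 3.53 at 3 weeks. The summed claudin level was 891 ± 120.4 RPKM at 1 week and 1237 ± 36.7 RPKM at 3 weeks, where replicate 4, at 1260.3 RPKM, lay within the range of the others. The sum depended on the unit. In the deposited TPM, another scaling of the reads, it was 2539 ± 301 at 1 week and 3351 ± 549 at 3 weeks. Replicate 3 at 3 weeks, at 2556 TPM, then lay within the 1-week range of 2156 to 2891 TPM. Replicate 4 was the highest, at 3813 TPM. These shares and sums are a description without a test.

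**Figure D3:**
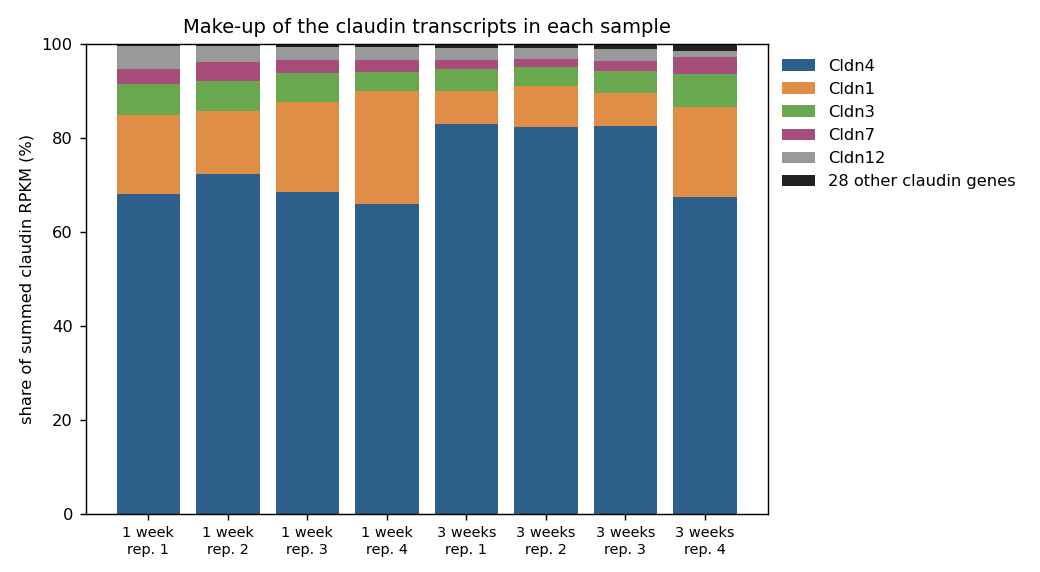
Share (percent) of each claudin in the summed RPKM of the 33 claudin genes, as 1 stacked bar per sample. Cldn4 takes 66.0% to 72.3% at 1 week and 82.3% to 82.9% in replicates 1 to 3 at 3 weeks, while 3 weeks replicate 4 (67.5%) resembles the 1-week bars.

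Of the 26 other claudin genes, 11 had no read in the 8 samples, 11 had 1 to 10 reads in all and 4 had more. Cldn23, a claudin of differentiated epithelia, was the only one to enter the test. It had 3.52, 2.97, 4.33 and 4.02 RPKM at 1 week and 7.61, 9.22, 10.7 and 16.3 RPKM at 3 weeks. All 3-week samples were higher, and Cldn23 rose with a log2 fold change of 1.72 (SE 0.25, edgeR adjusted p = 0.00130), or 1.51 without 3 weeks replicate 4 (edgeR adjusted p = 0.00124). Cldn9, the neighbour of Cldn6 at a distance of 137 bases, was not among the 4 with more than 10 reads.

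Of the other membrane proteins of the tight junction, 13 of 14 listed genes were in the tables and 10 were tested. With 6 called higher and 0 lower (15.7% and 17.0% of all tested genes), their median log2 fold change was 0.68. The counts were 7 and 0 without 3 weeks replicate 4, with a median of 0.77. F11r, which encodes the adhesion molecule JAM-A, had 112 to 139 RPKM at 1 week and 142 to 199 RPKM at 3 weeks (log2 fold change 0.67, edgeR adjusted p = 0.0140). Marveld3, a relative of occludin, rose by 1.47 on the log2 scale (edgeR adjusted p = 0.00318) and Jam2 by 1.26 (edgeR adjusted p = 0.00907). Marveld2, the occludin relative that sits where 3 cells meet, had a log2 fold change of 0.09 (edgeR adjusted p = 0.752). Of its partners at these corners, Ildr1 rose by 1.07 (edgeR adjusted p = 0.0132) and Lsr by 0.44 (edgeR adjusted p = 0.0388). The call for Lsr was lost in each of the 7 fits that left out another sample than 3 weeks replicate 4 (edgeR adjusted p 0.0601 to 0.113) and only 55.1% of Lsr reads were unique to the gene. Counting unique exon reads only, Lsr was not called (0.36, edgeR adjusted p = 0.0708). Crb3, a polarity protein of the apical membrane, rose by 0.68 (edgeR adjusted p = 0.0117). Leaving out 3 weeks replicate 4, the 6 genes were again called higher, at 0.80 for F11r, 1.17 for Marveld3, 1.18 for Jam2, 0.85 for Ildr1, 0.75 for Crb3 and 0.55 for Lsr (edgeR adjusted p at most 0.0193). For Lsr, Crb3 and Marveld2, antisense genes overlap them, and without strand information such reads cannot be told apart. The same limit holds for Tjp3, Tjap1, Arhgef2, Vcl and Ctnnb1 below.

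Among 32 genes of the cytoplasmic plaque and of cell polarity, 31 were tested, 5 were called higher and 5 lower, and the median log2 fold change was 0.31. These counts lie near the shares over all tested genes, 15.7% higher and 17.0% lower. Without 3 weeks replicate 4 the list had 4 called higher and 4 lower, and a median of 0.15. Cgn, which encodes cingulin, had a log2 fold change of 0.32 (edgeR adjusted p = 0.565). Tjp3, the ZO-3 gene, was at 6.31 RPKM in 3 weeks replicate 4 and at no more than 0.737 RPKM in any other sample. Its log2 fold change was 2.16 (edgeR adjusted p = 0.0577), and 0.63 without that sample (edgeR adjusted p = 0.0733). When another 3-week sample, replicate 1, 2 or 3, was left out instead, it passed the threshold (edgeR adjusted p 0.0368 to 0.0493).

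In the same list Amot, which encodes the polarity and Hippo pathway scaffold angiomotin, rose from 0.694 ± 0.284 to 8.36 ± 2.66 RPKM (log2 fold change 3.74, edgeR adjusted p = 0.000240). Cgnl1, the paracingulin gene, was called higher with 3.05 (edgeR adjusted p = 0.0303), but its call was lost without 3 weeks replicate 4 (1.58, edgeR adjusted p = 0.0562) and without any 1 of the 1-week samples (edgeR adjusted p 0.0504 to 0.0862). Ybx3, the ZO-1-binding transcription factor ZONAB, fell from 235 ± 9.49 to 94.4 ± 10.9 RPKM (-1.16, edgeR adjusted p = 0.000326). Tjap1, a tight junction associated protein, fell by 1.04 on the log2 scale (edgeR adjusted p = 0.00246). Pard6a, a subunit of the Par polarity complex, fell by 0.97 (edgeR adjusted p = 0.0440), and Arhgef2, the exchange factor GEF-H1, fell by 0.77 (edgeR adjusted p = 0.0431). Amot, Ybx3 and Tjap1 were also called without 3 weeks replicate 4, at 3.80, -1.15 and -0.91 (edgeR adjusted p at most 0.00151). The calls for Pard6a and Arhgef2 were lost in 5 and 7 of the 8 fits without 1 sample. The remaining called genes, Pard6g, Mpp5 and Llgl2 (higher) and Scrib (lower), lie outside the rule for named genes and are named after their values were seen.

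**Figure D4:**
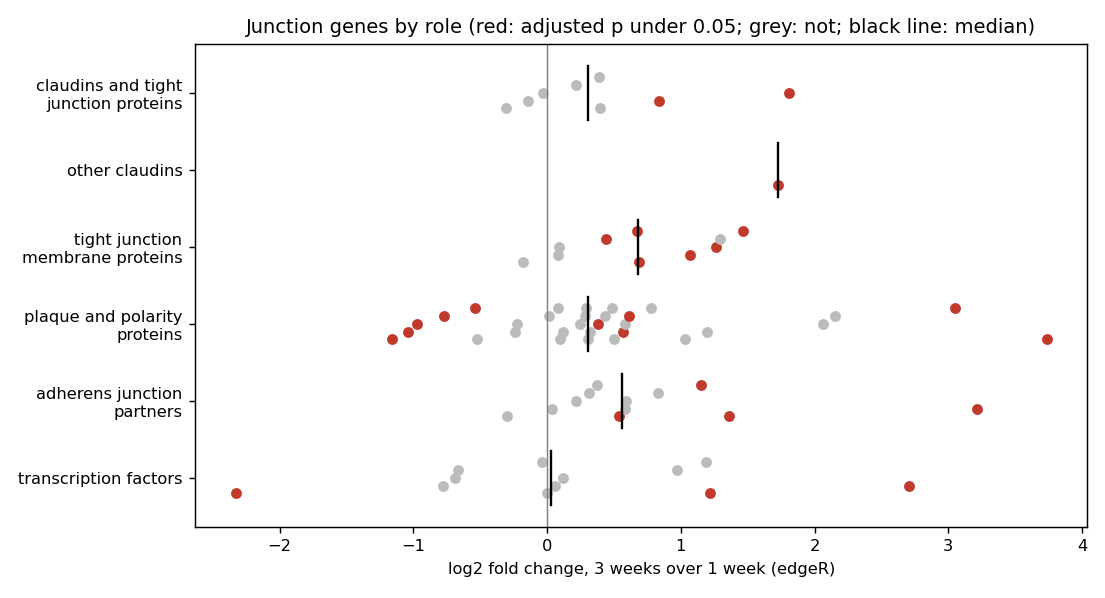
Log2 fold changes (3 weeks over 1 week) of every tested gene in the tight junction group and in the lists of other junction genes and transcription factors, with called genes marked and the median of each list as a line. The medians were 0.30 for the tight junction group, 0.68 for other membrane proteins, 0.31 for plaque and polarity proteins, 0.56 for adherens junction partners and 0.03 for the transcription factors with all samples, and 0.06, 0.77, 0.15, 0.37 and -0.30 in that order without 3 weeks replicate 4, which is not plotted.

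Adherens junctions, the cadherin contacts next to which tight junctions assemble, were covered by 12 tested genes, with 4 called higher, 0 lower and a median log2 fold change of 0.56. Over all tested genes 15.7% were called higher and 17.0% lower. Leaving out 3 weeks replicate 4 gave the same counts for the adherens list and a median of 0.37. Nectin3 (3.21, edgeR adjusted p = 0.00161) and Nectin4 (1.36, edgeR adjusted p = 0.000687), adhesion molecules of this contact, rose, as did Vcl, the vinculin gene (1.15, edgeR adjusted p = 0.0170), and Ctnnb1, the beta-catenin gene (0.54, edgeR adjusted p = 0.0152). In the fit without 3 weeks replicate 4 these 4 genes had log2 fold changes of 3.51, 1.21, 1.13 and 0.58 (edgeR adjusted p at most 0.0265). Vcl was lost without 1 week replicate 1 (1.02, edgeR adjusted p = 0.0621) and Ctnnb1 without 1 week replicate 2 (0.48, edgeR adjusted p = 0.0525). Unique reads were 65.6% for Vcl and 42.5% for Ctnnb1. Counting unique exon reads only, both were still called, at 1.05 and 0.47 (edgeR adjusted p = 0.0248 and 0.0170). Both remain uncertain, because each call was lost when a sample was left out.

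Among the 12 tested of 14 transcription factors known to act on tight junction genes, 2 were called higher and 1 lower (15.7% and 17.0% of all tested genes). Ovol1, a repressor in differentiating epidermis, fell from 8.99 ± 5.61 to 1.62 ± 0.619 RPKM (-2.33, edgeR adjusted p = 0.00472). Zeb1, an E-box repressor, rose (2.71, edgeR adjusted p = 0.00221) but stayed at very low levels of 0.0287 ± 0.0110 and 0.178 ± 0.0780 RPKM. Its relative Zeb2 (1.22, edgeR adjusted p = 0.0464) lost its call in 6 of the 8 fits without 1 sample. Antisense genes overlap both Zeb1 and Zeb2. Snai2, another E-box repressor, which is named after its values were seen, had a log2 fold change of -0.78 (edgeR adjusted p = 0.0501). Without 3 weeks replicate 4 the counts of this list were 1 higher and 3 lower, and its median turned from 0.03 to -0.30. In that fit Ovol1 was at -2.41 (edgeR adjusted p = 0.00843) and Zeb1 at 2.65 (edgeR adjusted p = 0.00390), and Snai2 was called lower at -0.57 (edgeR adjusted p = 0.0326). Klf4, also named after its values were seen, was called lower there at -0.81 (edgeR adjusted p = 0.0432). With all samples it was at -0.66 (edgeR adjusted p = 0.0801).

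The genes whose pattern over the 8 samples lay closest to that of Cldn4 were Arl8a, Fam214b and Tmed4, at a root mean square difference of centred log2 CPM of 0.0673, 0.0714 and 0.0802. The median over all tested genes was 0.602. For Cldn6 the closest were Csrp1, Tceal9 and Snx24, at 0.150, 0.174 and 0.198 against a median of 1.01. The 8 points share their libraries, and no test was made.

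Markers of other cell types were read beside these results. The 5 basal KC markers, Krt5 and Krt14 among them, summed to 12113 to 14296 RPKM at 1 week and 6985 to 8207 RPKM at 3 weeks, the highest of any marker list. Suprabasal markers (Krt1, Krt10, Ivl, Lor, Flg) summed to 3.96 to 26.7 RPKM at 1 week and, at 3 weeks, to 13.6 RPKM in replicate 4 and 3.86 to 3.96 RPKM in the others. In replicate 4 Ivl alone gave 10.3 RPKM of this sum, and Krt10, at 0.354 RPKM, was the lowest of the 3-week samples. Markers of simple epithelia (Krt7, Krt8, Krt18, Krt19, Epcam), where Cldn4 is also common, were called higher in 5 of 5, against 15.7% of all tested genes. Of the tested markers in other lists, 2 of 5 basal, 1 of 4 suprabasal and 1 of 4 melanocyte genes were called lower, against 17.0%. The simple epithelium markers summed to 554 to 871 RPKM at 1 week. At 3 weeks their sum was 3498 to 3996 RPKM in replicates 1 to 3 and 1984 RPKM in replicate 4. Cldn4, Cldn6 and Cldn12 were also lowest in this sample among the 3-week samples, whereas Cldn1, Cldn3, Cldn7, Ocln and Tjp1 were highest in it. The markers did not all follow the sum: in replicate 4 Krt8 (987 RPKM) and Krt18 (403 RPKM) were the lowest of the 3-week samples. Epcam, at 485 RPKM, was the highest of them. Summed markers of fibroblasts (2.30 to 4.65 RPKM), endothelium (0.307 to 0.648 RPKM), leukocytes (1.15 to 3.26 RPKM) and sebocytes (0.728 to 5.35 RPKM) stayed low in every sample. Merkel cell markers reached 0.0633 to 0.183 RPKM at 1 week and 0.344 to 0.640 RPKM at 3 weeks, with Atoh1, Isl1 and Sox2 at 3 reads or fewer in every sample. Melanocyte markers reached 3.18 to 20.9 RPKM at 1 week and 1.26 to 5.50 RPKM at 3 weeks. The part of these markers in the tight junction results was not tested.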

How the data were processed

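KCs from tails of adult mice were cultured for 1 or 3 weeks, and 1 gene table per sample was used, grouped by its label. The authors made poly(A) libraries, trimmed the reads and aligned them with the CLC Genomics Workbench. The build, GRCm38, is given in the submitters' processing notes, whereas strand use in counting and the annotation release are not given in the sources used here. The deposited counts are whole exon reads per gene without normalization. The RPKM and TPM values deposited by the authors were written with decimal commas and were used as levels and shares only.

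Exon reads were filtered with filterByExpr, scaled by TMM and tested by glmQLFit and glmQLFTest in edgeR 4.0.16 (R 4.3.3), with Benjamini-Hochberg adjustment over all 12590 tested genes. The procedure was tested on simulated data with 200 changed genes. It called 43.8% of the 2-fold and 86.7% of the 4-fold changes, with 3 false calls. Only 200 genes changed there, against 4127 called in the data, and no simulated sample was made to stand apart. The shares and false calls may thus not hold for the data. A gene that did not pass can still differ. Alternatives were DESeq2 1.42.0, upper-quartile scaling, other filters and read columns, limma 3.58.1 on log2(RPKM + 0.1) or log2(RPKM + 1), a replicate block, and each sample left out. Of the lists, Tjp3, Cgn, F11r, Marveld2 and up to 6 further called genes per list, by size of change, were named. An item that this rule also covers is not reported here. Members and lists were chosen with earlier results of these data known. Promoters were read from a RefSeq table, and 0 other columns of sample values were left out.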

Additional observations from a re-analysis of the deposited data

Results flagged for a closer look

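In 66 groups of 4 values (33 genes at 2 times), 9 had a sample whose gap to its nearest neighbour took up more of the range of the group than Dixon's critical ratio allows. For independent groups of normally distributed values, chance gives this in about 5%. The 33 genes share their libraries, and many were named because they were called, so the 9 cannot be judged against that rate. Of the 9 flagged groups, 8 were in 3 weeks replicate 4. Among the claudins, this sample was far above the others for Cldn3 (87.3 RPKM) and Cldn7 (45.5 RPKM) and far below them for Cldn12 (17.7 RPKM). Among the other junction genes it was far below for F11r (141.9 RPKM) and far above for Marveld3 (10.3 RPKM), Ildr1 (42.2 RPKM), Tjp3 (6.31 RPKM) and Cgnl1 (6.15 RPKM). The remaining value was Tjp3 in 1 week replicate 3 (0.694 RPKM), the highest of its group. The cause was not tested.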

How the results depend on the processing

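Cldn4 passed the test in the same direction in 18 of 18 alternatives (log2 fold change 0.68 to 0.92) and Cldn6 in 17 of 17 (0.67 to 2.05). When at least 10 reads were required in every sample, Cldn6 and Zeb1 left the test and 1 gene of the group was called higher. With each sample left out in turn, 0 to 2 genes of the group were called lower, the 2 being Cldn1 and Ocln without 3 weeks replicate 4, and 3015 to 4861 genes were called in all. The sign of uncalled changes turned in these fits, with log2 fold changes from -0.58 to 0.022 for Cldn1, -0.029 to 0.41 for Cldn7, -0.19 to 0.18 for Cldn12, -0.19 to 0.65 for Tjp1 and -0.067 to 0.19 for Marveld2. In limma on log2(RPKM + 0.1), Tjp1 was at -0.0061, Marveld2 at -0.090 and Cgn at -0.052. On log2(RPKM + 1), Marveld2 was at -0.073 and Cgn at -0.0096. The median of all genes was then -0.16 or -0.10, and 29.8% or 29.3% of the called genes were higher, against 48.0% in edgeR. Few reads limit Cldn6, Cldn8 and Zeb1.

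The study describes cultures of both times as coming from the same KC batches, but the labels do not say that replicate numbers mark them, and deviations of samples with the same number correlated at -0.23, -0.15, -0.15 and 0.25. With the replicate block, 2867 genes were called in place of 4127, Cldn4 (0.84, edgeR adjusted p = 0.0238) and Cldn6 (1.76, edgeR adjusted p = 0.0205) were again called higher and no other gene of the group was called. The other membrane proteins then had 4 higher, the plaque list 2 higher and 3 lower, the adherens list 2 higher and the transcription factors 1 higher and 2 lower. Of the named genes, Ildr1, Lsr, Cgnl1, Pard6a, Vcl, Ctnnb1 and Zeb2 lost their calls (edgeR adjusted p 0.0507 to 0.122). A block on the 3 numbers that file names of both times share gave 3109 calls and the same calls for the group, while F11r, Crb3, Lsr, Pard6a, Arhgef2, Ctnnb1 and Zeb2 lost theirs (edgeR adjusted p 0.0606 to 0.145).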
